A study of Danio rerio with 6 samples.

Results

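Rods are the photoreceptors of dim light, and the genes examined here are the parts of their light-sensing cascade and the transcription factors that set their identity. They were taken by symbol as 10 of the 21317 rows of the deposited expression table. In total, 8 of them encode phototransduction proteins (rho, gnat1, gnb1a, gngt1, pde6a, pde6b, saga and sagb) and 2 encode rod transcription factors (nrl and nr2e3). Each symbol stood on 1 row.

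RNA was sequenced from 72 hpf (hours post-fertilization) zebrafish embryos of the Tg(c-mybhyper:GFP) strain, a line with a hyperactive c-Myb that the study uses as a leukemia model with expanded myelopoiesis. The Tan I group (3 libraries) was kept from 30 hpf in 60 µM Tan I (Tanshinone I, a lipid-soluble compound of Salvia miltiorrhiza), and the control group (3 libraries) was kept in the solvent DMSO. All embryos of both groups carried the same transgenic allele, so no library came from wild type fish. The study's methods describe the RNA as coming from embryos and not from isolated eyes, so rod transcripts are a small part of it. The sample titles instead name zebrafish cells, but no sorting of cells is described for these libraries.

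In a rod, light isomerises the chromophore of rhodopsin, which activates the G protein transducin. Transducin removes the inhibitory subunits from phosphodiesterase 6 (PDE6), cyclic GMP falls, and the cation channels it holds open close. Phosphorylation of rhodopsin by a kinase and binding of arrestin end the signal. In the mouse, the leucine zipper factor NRL and its target, the nuclear receptor NR2E3, switch on rod genes and keep cone genes off. Cones use related but separate copies of most of these proteins, so that many steps of the cascade have a rod gene and a cone gene.

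The table gave normalized counts, which are reads per gene divided by 1 size factor per library. Dividing by the value of 1 read returned whole reads for 100% of values in every library (within 0.01 reads). These summed to between 15874701 and 16959503 reads per DMSO library and between 20451593 and 24932190 per Tan I library, so each Tan I library was deeper. The first principal component (37.2% of the variance) separated the groups, with Tan I replicate 3 nearest to DMSO. Nothing stated that replicates came from separate clutches, so p-values measure only the spread between these libraries. How many embryos made up a library was not stated.

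Of the 10 rod genes, 8 were lower in Tan I by limma at a Benjamini-Hochberg adjusted p under 0.05 and none was higher. Over all 20836 genes tested, 0.504% were called lower and 2.07% higher. The 8 called genes were rho, gnat1, gngt1, pde6a, pde6b, saga, sagb and nr2e3, and their means were 33.4% to 40.1% below DMSO. The other two were gnb1a and nrl. In 9 of the 10 every Tan I library lay below every DMSO library, which was so for 10.4% of all genes tested. In RNA of whole embryos, fewer rods and less RNA per rod cannot be told apart.

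**Figure D1:**
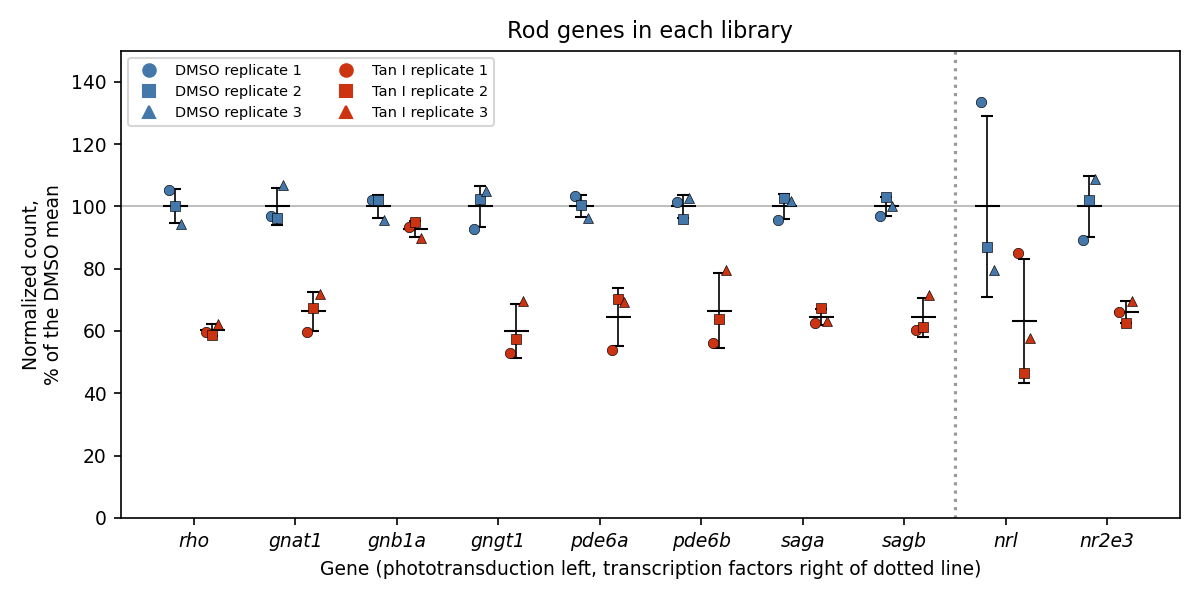
Normalized count of each rod gene in each library, as a percent of the gene's DMSO mean, with phototransduction genes left of the dotted line and transcription factors right of it. Long bars are group means, whiskers are 1 SD and n = 3 per group, and only nrl has Tan I and DMSO libraries that overlap.

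At the head of the cascade, rho (ENSDARG00000002193) encodes rhodopsin. It had normalized counts of 33946, 32210 and 30428 in DMSO replicates 1 to 3, and of 19237, 18954 and 20072 in Tan I replicates 1 to 3. The groups were far apart, with the lowest DMSO library 1.52 times the highest Tan I library. Means were 32195 ± 1759 and 19421 ± 581 (SD, n = 3), so rho fell by 39.7%, or by 0.73 ± 0.07 on the log2 scale (SE, adjusted p = 8.54e-05 by limma). Before scaling, the gene held 29368, 26526 and 27358 reads in DMSO and 24748, 20243 and 23329 reads in Tan I, so counting error was small beside the spread between libraries. As a share of the reads of its library, rho took 0.173%, 0.167% and 0.162% in DMSO and 0.0993%, 0.0990% and 0.108% in Tan I. It ranked 52, 52 and 53 by normalized count among all genes in DMSO, and 87, 91 and 81 in Tan I.

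Transducin has an alpha, a beta and a gamma subunit, and the values for the beta subunit stood apart from the other two. The alpha subunit gene gnat1 (ENSDARG00000044199), whose product carries the signal to PDE6, had 1831, 1819 and 2020 normalized counts in DMSO and 1126, 1271 and 1361 in Tan I. All Tan I libraries lay below all DMSO libraries, and gnat1 fell by 0.60 ± 0.08 on the log2 scale (SE, n = 3, limma adjusted p = 0.00122). The gamma subunit gene gngt1 (ENSDARG00000035798) had 1474, 1627 and 1672 in DMSO and 840.3, 912.9 and 1106 in Tan I. This gene fell by 0.75 ± 0.10 on the log2 scale (SE, n = 3, limma adjusted p = 0.000792), the lowest log2 fold change of the 10 genes, and again without overlap.

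The beta subunit gene gnb1a (ENSDARG00000090454), which many other tissues also use, had 7268, 7275 and 6811 normalized counts in DMSO and 6648, 6754 and 6408 in Tan I. The groups were separate only by a narrow margin, the lowest DMSO library being 1.01 times the highest Tan I library. Its log2 fold change was -0.11 ± 0.06 (SE, n = 3), with a 95% interval of -0.24 to 0.03 and a limma adjusted p of 0.445, and it passed the threshold in none of 17 alternative analyses. The paralog gnb1b gave -0.11 as well (limma adjusted p = 0.435). Within a library, gnat1 divided by gnb1a gave 0.266 ± 0.0263 for DMSO and 0.190 ± 0.0216 for Tan I, and gngt1 divided by gnb1a gave 0.224 ± 0.0213 and 0.145 ± 0.0246 (SD, n = 3). Neither ratio overlapped between the groups, and with 3 libraries against 3 the 2-sided exact permutation test gave p = 0.10 for each, the smallest it can give.

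PDE6, the enzyme that hydrolyses cyclic GMP, has 2 catalytic subunit genes in rods. The counts of pde6a (ENSDARG00000000380) were 371.0, 360.6 and 345.9 in DMSO and 193.6, 252.8 and 249.5 in Tan I. Those of pde6b (ENSDARG00000011671) were 613.8, 581.6 and 622.9 in DMSO and 341.2, 386.7 and 482.7 in Tan I. Neither gene overlapped between groups, but both were more spread among Tan I libraries, with a coefficient of variation above that of DMSO, and Tan I replicate 1 was lowest for each. The log2 fold changes were -0.64 ± 0.12 for pde6a (limma adjusted p = 0.00993) and -0.60 ± 0.11 for pde6b (limma adjusted p = 0.0131, SE, n = 3 each). Without DMSO replicate 2 neither passed the threshold (limma adjusted p = 0.0698 and 0.0621), while the fold changes were -0.64 and -0.63.

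The arrestins, which cap activated rhodopsin, are encoded by saga and sagb. Normalized counts of saga (ENSDARG00000012610) were 1803, 1940 and 1920 in DMSO and 1182, 1272 and 1196 in Tan I. Those of sagb (ENSDARG00000038378) were 4883, 5193 and 5041 in DMSO and 3033, 3093 and 3609 in Tan I. The groups were well apart for both copies. Libraries of a group lay close together for saga, with a coefficient of variation of 3.92% in DMSO and 4.02% in Tan I. For sagb it was 3.08% in DMSO and 9.76% in Tan I, where replicate 3 was the highest. The means fell by 35.6% for each copy, with log2 fold changes of -0.63 ± 0.07 for saga (limma adjusted p = 0.000153) and -0.64 ± 0.07 for sagb (limma adjusted p = 0.000338, SE, n = 3 each).

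The transcription factor nr2e3 (ENSDARG00000045904) was measured at 327.1, 374.0 and 398.2 normalized counts in DMSO and at 242.5, 229.4 and 255.5 in Tan I. The groups did not overlap. This factor fell by 0.59 ± 0.11 on the log2 scale (SE, n = 3; 95% interval of the change -0.82 to -0.36, limma adjusted p = 0.00831). It did not pass without 1 of 2 libraries, at an adjusted p of 0.0693 without DMSO replicate 2 and 0.0539 without Tan I replicate 2.

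The other factor, nrl (ENSDARG00000100466), was weakly measured. It held 79, 49 and 49 reads in DMSO and 75, 34 and 46 in Tan I, or 91.3, 59.5 and 54.5 against 58.3, 31.8 and 39.6 normalized counts. Tan I replicate 1 lay above DMSO replicate 3, so the groups overlapped, and replicate 1 was the highest library in each group. The log2 fold change of -0.66 ± 0.26 (SE, n = 3) had a 95% interval of -1.22 to -0.09, an unadjusted p of 0.0255 and a limma adjusted p of 0.246. A difference of the size seen in rho lies inside this interval, and so does a far smaller one. The adjusted p ran from 0.0845 to 0.537 over the 16 alternatives in which nrl was tested.

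The comparison of effectors with the factors that act on them was made by setting the values side by side, because the genes were chosen with results known and no p was computed for a score over them. Of the 8 phototransduction genes 7 were called lower, and the median of all 8 on the log2 fold change scale was -0.64. Of the 2 factors 1 was called lower, and the median was -0.62. The median over all genes tested was -0.0067. The mean log2 value of the phototransduction genes was 11.26, 11.28 and 11.28 in DMSO and 10.57, 10.70 and 10.80 in Tan I. That of the factors was 7.44, 7.23 and 7.22 in DMSO and 6.91, 6.44 and 6.67 in Tan I. Each mean was separate between the groups, but their difference was not: it was 3.82, 4.05 and 4.06 in DMSO and 3.66, 4.25 and 4.13 in Tan I. The spread between libraries did not separate the change of the effectors from that of the factors.

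Ratios of an effector to a factor within a library overlapped between the groups too. Dividing gnat1 by nr2e3 gave 5.18 ± 0.378 with DMSO against 5.17 ± 0.471 with Tan I (n = 3, SD, exact permutation p = 1). Dividing rho by nr2e3 gave 88.8 ± 13.9 with DMSO against 80.2 ± 2.16 with Tan I (n = 3, SD, exact permutation p = 0.4). Ratios of rho and gnat1 to nrl also overlapped (exact permutation p = 0.7 and 0.8). In all, 17 ratios were examined, chosen after the values of the genes had been seen, and after Benjamini-Hochberg adjustment over them the smallest p was 0.155. They are ratios of normalized counts, without correction for gene length.

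The factor crx, which works upstream in rods and cones alike, had 2537, 2750 and 2442 normalized counts in DMSO and 2349, 2092 and 1966 in Tan I. The groups did not overlap, but the log2 fold change, -0.27 ± 0.08 (SE, n = 3), had an adjusted p of 0.099 by limma. It passed the threshold in 3 of 17 alternatives, with sample quality weights, with the replicate number as a block (adjusted p = 0.0196) and without Tan I replicate 1. Dividing nr2e3 by crx gave 0.143 ± 0.0180 for DMSO and 0.114 ± 0.0140 for Tan I, with overlap (SD, n = 3, exact permutation p = 0.2). Among the 21 other photoreceptor transcription factors measured, 1 was called lower and none higher, and the median was -0.09 on the log2 scale. The gene called was rorb, a nuclear receptor needed for rod development in the mouse, at 380.3, 357.0 and 403.7 in DMSO against 264.3, 258.4 and 271.9 in Tan I (log2 fold change -0.52, limma adjusted p = 0.00947, or 0.0569 without Tan I replicate 2).

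A further 24 genes of rod outer segments and rod signalling were measured, of 28 listed. Of these 7 were called lower and 1 higher, 19 had a negative log2 fold change, and the median was -0.38. In 17 of the 24 all Tan I libraries lay below all DMSO libraries. Without DMSO replicate 2 the number called lower was 4. The disc rim protein gene rom1a had 1480, 1691 and 1484 normalized counts in DMSO and 861.3, 915.7 and 1058 in Tan I, a fall of 0.72 ± 0.09 on the log2 scale (SE, n = 3, limma adjusted p = 0.000499). The gene pde6gb, for an inhibitory gamma subunit of PDE6, had 845.0, 901.0 and 865.3 in DMSO and 624.2, 607.7 and 582.5 in Tan I (log2 fold change -0.52, limma adjusted p = 0.00154). The rhodopsin kinase gene grk1a had 868.1, 893.7 and 910.9 in DMSO and 489.7, 605.8 and 666.8 in Tan I (log2 fold change -0.61, limma adjusted p = 0.00572). None of these 3 genes overlapped between groups. The other genes called lower, named after their values were seen, were rom1b (-0.53), the channel subunit genes cnga1a (-0.66) and cngb1a (-0.45) and the recoverin gene rcvrn2 (-0.28). At a DMSO mean of 4802 normalized counts, rcvrn2 stood above gnat1 (1890), and whether rods or cones held it was not tested. When each library was left out in turn, rom1a, pde6gb, grk1a and rom1b passed in all 6 fits, cngb1a in 4, rcvrn2 in 2 and cnga1a in 1 (without Tan I replicate 3; adjusted p of the lost calls of these 3 from 0.0567 to 0.17).

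**Figure D2:**
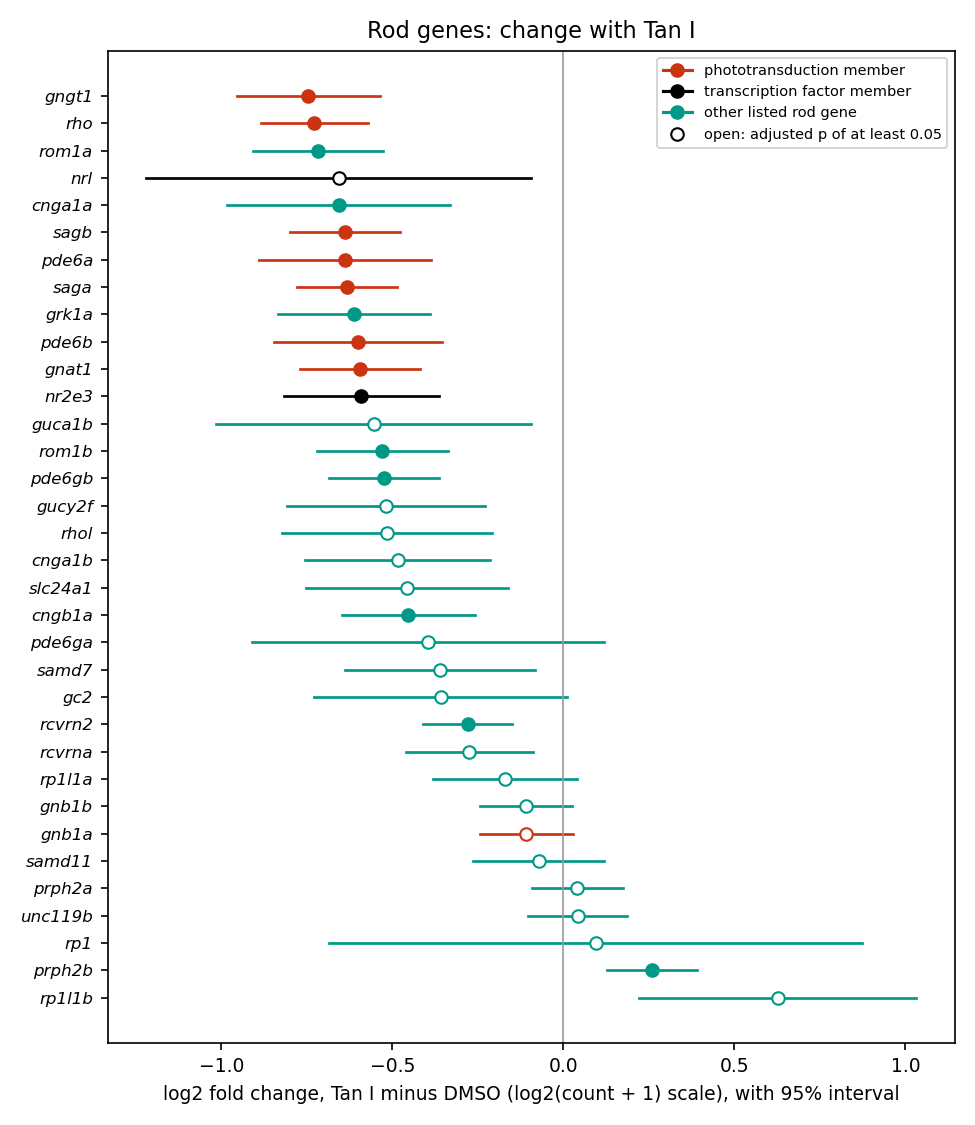
Log2 fold change (Tan I minus DMSO) of the 10 rod genes and the 24 other listed rod genes with 95% intervals from limma, n = 3 per group. Filled points have an adjusted p under 0.05: most fall between -0.75 and -0.28, while gnb1a lies near 0 and prph2b lies above it.

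Genes called lower in the reported fit thus encode the opsin, the alpha and gamma subunits of transducin, and catalytic and inhibitory subunits of PDE6. They also encode channel subunits, the kinase and the arrestins. Of the channel subunit genes, cnga1a also lost its call with reads thinned to the smallest library (limma adjusted p = 0.0676). Genes of the list that did not pass included gucy2f, a guanylate cyclase that restores cyclic GMP (log2 fold change -0.52, limma adjusted p = 0.0637), the channel gene cnga1b (-0.48, adjusted p = 0.0636) and slc24a1, the rod sodium, calcium and potassium exchanger (-0.46, adjusted p = 0.117). The rhodopsin-like gene rhol gave -0.52 (adjusted p = 0.0851). These 4 were also without overlap, and were named after their values were seen.

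The peripherin genes, which rods and cones both use at the rims of their discs, had positive log2 fold changes. The copy prph2b had 2744, 2623 and 2617 normalized counts in DMSO and 3187, 3140 and 3223 in Tan I (log2 fold change 0.26 ± 0.06, SE, n = 3, limma adjusted p = 0.0413). All Tan I libraries were above all DMSO libraries, but the call was lost without any one of the 6 libraries (adjusted p from 0.0661 to 0.229). The copy prph2a overlapped between groups (log2 fold change 0.04, limma adjusted p = 0.813). The largest positive value of the list was that of rp1l1b at 0.63, which did not pass (limma adjusted p = 0.117), though all its Tan I libraries lay above all DMSO libraries. It passed in 3 of 17 alternatives: with sample quality weights (limma adjusted p = 0.023), with the replicate number as a block (0.035) and without DMSO replicate 1 (0.00684).

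Genes of signal shut-off and calcium feedback that were listed as shared by rods and cones were mixed. Whether rods, cones or both held each copy was not tested, so the list can mix rod copies with cone copies. Of 15 measured, 2 were called lower and 2 higher, and the median was -0.16 on the log2 scale. Lower were aipl1, a chaperone of PDE6, at 159.5, 176.1 and 163.5 in DMSO against 108.8, 108.6 and 110.1 in Tan I (log2 fold change -0.60, limma adjusted p = 0.022), and pdca, a phosducin that binds transducin beta and gamma subunits (-0.52, adjusted p = 0.0233). Higher were the guanylate cyclase gene gucy2d (0.39, adjusted p = 0.00655) and the other phosducin copy pdcb (0.33, adjusted p = 0.0285). When each library was left out in turn, pdca passed only without Tan I replicate 3, aipl1 only without that library or without DMSO replicate 1, and pdcb only without Tan I replicate 1 or 3 (adjusted p of the lost calls from 0.0617 to 0.17), while gucy2d was lost only without DMSO replicate 2 (adjusted p = 0.0534). Without DMSO replicate 2 none of the 15 genes was called in either direction.

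The cone counterparts give the nearest comparison. Of 26 cone phototransduction genes measured, 3 were called lower and 4 higher, and the median log2 fold change was -0.12. Their summed level was 118052 to 123549 normalized counts in DMSO and 104815 to 115009 in Tan I, without overlap. For the 8 rod phototransduction genes the sum was 48860 to 52190 in DMSO and 32600 to 34484 in Tan I. In the cone sum, the opsin gene opn1sw1 held 24963 to 28044 in DMSO and 17006 to 20435 in Tan I. The cone transducin alpha gene gnat2 had 9218, 8723 and 8883 normalized counts in DMSO and 8983, 9200 and 9406 in Tan I, overlapping, with a log2 fold change of 0.04 (95% interval -0.09 to 0.18, limma adjusted p = 0.811). The cone catalytic PDE6 gene pde6c rose from 4572, 4257 and 3988 in DMSO to 6191, 6029 and 5935 in Tan I, without overlap (log2 fold change 0.50, limma adjusted p = 0.001). The cone channel subunit gene cngb3.1 (log2 fold change 1.01, adjusted p = 0.00552) and the cone opsin gene opn1mw2 (0.55, adjusted p = 0.0424) were also higher. The other listed copy, cngb3.2, was more abundant, with a DMSO mean of 381 normalized counts against 65.7 for cngb3.1. All its Tan I libraries lay below all DMSO libraries, but it was not called (log2 fold change -0.32, limma adjusted p = 0.1). This copy was named after its values were seen. Called lower were the cone opsin genes opn1sw1 (-0.48, adjusted p = 0.00727) and opn1lw2 (-0.37, adjusted p = 0.0243) and the cone transducin beta gene gnb3a (-0.43, adjusted p = 0.0219). None of these 3 was called without DMSO replicate 2, and opn1lw2 passed in only 2 of the 6 fits that left out a library and gnb3a in 3. In those fits pde6c and cngb3.1 passed in all 6, and opn1mw2 only without DMSO replicate 3 or Tan I replicate 3 (adjusted p of the lost calls from 0.0976 to 0.223). The count of cone genes called higher was 2 without DMSO replicate 1, DMSO replicate 2 or Tan I replicate 2. Leaving out Tan I replicate 1 gave 1 cone gene called lower, and leaving out Tan I replicate 3 gave 5.

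**Figure D3:**
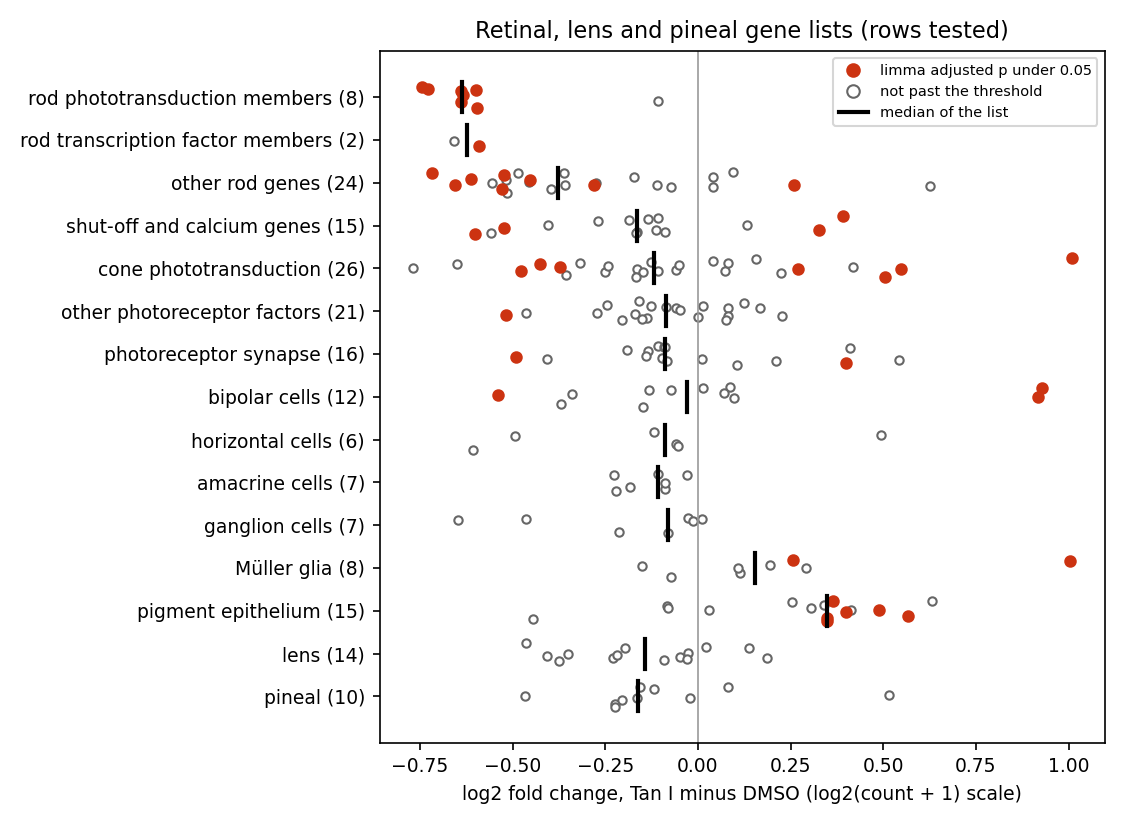
Log2 fold change (Tan I minus DMSO) of each tested gene in the rod lists and in lists for other cells of the eye, the lens and the pineal gland, with the number of rows tested in brackets. Red points passed the limma threshold and black bars are list medians, which lie at -0.64 for rod phototransduction and at -0.12 for cone phototransduction.

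Ratios of a rod gene to its cone counterpart in the same library, which do not depend on the scaling between libraries, were separate between the groups in 9 of 9 pairs. Several pairs share gngt1, gnb1a, pde6c or arr3a, so these are not 9 separate results. The pairs were chosen after the values had been seen, and the share over all gene pairs was not computed. They left out rho against any cone opsin, of which opn1sw1 (-0.48) and opn1lw2 (-0.37) were called lower and opn1mw2 (0.55) higher. Also left out was the arrestin copy arr3b (log2 fold change -0.15, limma adjusted p = 0.394), named after its values were seen. The ratio of gnat1 to gnat2 was 0.199, 0.209 and 0.227 in DMSO and 0.125, 0.138 and 0.145 in Tan I. For sagb to the cone arrestin arr3a the ratio was 0.536, 0.537 and 0.532 in DMSO and 0.269, 0.288 and 0.328 in Tan I. Part of this difference lay in arr3a, which was higher in every Tan I library though not called (log2 fold change 0.22, limma adjusted p = 0.0925). The ratio of pde6a to pde6c went from 0.0842 ± 0.00282 to 0.0384 ± 0.00619 (SD, n = 3), a log2 difference of -1.15, with pde6c itself higher. The ratio was lower in Tan I in 8 pairs and higher only for gnb1a to gnb3a, at 4.16 ± 0.353 with DMSO against 5.19 ± 0.578 with Tan I (n = 3, SD), where the cone gene fell. Each of the 9 had an exact permutation p of 0.10, the smallest that 3 against 3 allows, so none could reach 0.05.

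**Figure D4:**
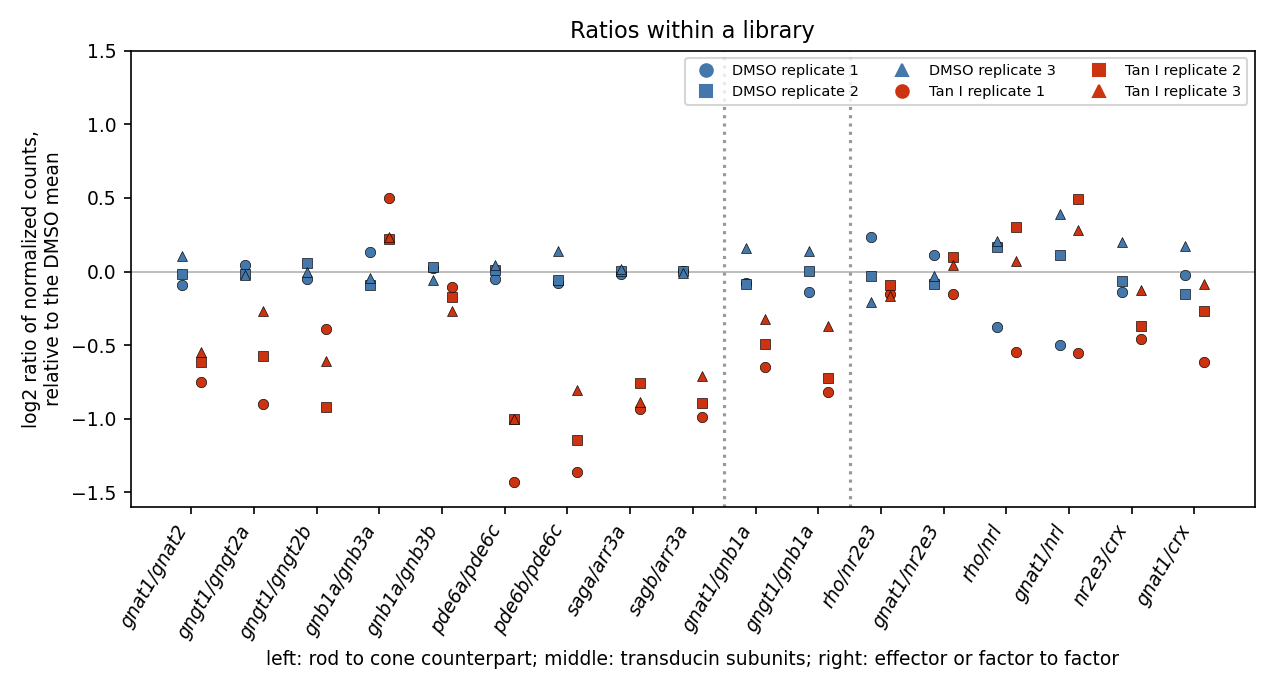
Log2 ratio of normalized counts of 17 gene pairs in each library, relative to the DMSO mean of the pair. The rod to cone pairs on the left and the transducin pairs in the middle are separate between DMSO and Tan I, and the ratios of effectors or nr2e3 to a transcription factor on the right overlap.

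Markers of other cells were counted in the same fit. As only genes with a mean of 10 or more were tested, no tested marker could be at 0. How much of the marker counts came from the eye, in RNA of whole embryos, was not tested. For the pigment epithelium, which recycles the chromophore for rods, 6 of 15 genes were called higher and none lower, with a median of 0.35 on the log2 scale and a summed level of 15766 to 16305 normalized counts in DMSO and 18223 to 19952 in Tan I. Among them were tyrp1b (0.35, limma adjusted p = 0.00898), rgra (0.57, adjusted p = 0.0106) and pmelb (0.40, adjusted p = 0.0177), of which tyrp1b and pmelb are also pigment cell genes. The rest, named after their values were seen, were rpe65a (0.36, limma adjusted p = 0.0263), rlbp1b (0.49, adjusted p = 0.0457) and rgrb (0.35, adjusted p = 0.0464). None of the 6 was called without DMSO replicate 2, nor without Tan I replicate 2, and 3 were called without DMSO replicate 3. Much of the summed level lay in tyrp1b, pmela and dct, which pigment cells also use. Their DMSO means were 4217, 3336 and 1833 normalized counts, and their Tan I means 5375, 3414 and 2188. The genes pmela and dct were not called, and were named after their values were seen. For Müller glia 2 of 8 were higher, namely ptgdsb.1 (1.00, adjusted p = 0.000172) and gfap (0.26, adjusted p = 0.042), with summed levels of 28465 to 29197 in DMSO and 33304 to 39969 in Tan I. Of the 8, 2 had a negative log2 fold change, rlbp1a (-0.07) and slc1a3b (-0.15), and the median was 0.16. In the sum, apoeb held 11328 to 11941 in DMSO and 12809 to 17792 in Tan I, and was not called (limma adjusted p = 0.212). The genes rlbp1a, slc1a3b and apoeb were named after their values were seen. The gfap call held only without Tan I replicate 1 among the fits that left out a library (adjusted p of the lost calls from 0.0839 to 0.218), whereas ptgdsb.1 passed in all 6. Their part in the rod result was not tested.

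Among neurons that lie downstream of rods, 2 of 12 bipolar cell genes were higher (cabp5b, 0.93, limma adjusted p = 0.00893, and cabp5a, 0.92, adjusted p = 0.0452) and 1 was lower (grm6b, -0.54, adjusted p = 0.00502). The call of cabp5b was lost without DMSO replicate 2 or Tan I replicate 2 (adjusted p = 0.0638 and 0.0686), that of cabp5a in 5 of the 6 fits that left out a library (adjusted p from 0.051 to 0.161), and that of grm6b without DMSO replicate 2 (adjusted p = 0.0534). Their summed level overlapped, at 7976 to 8115 in DMSO and 6686 to 8516 in Tan I. Of 16 rows for photoreceptor synapse genes, syt5a was higher (0.40, adjusted p = 0.0217) and cplx4c lower (-0.49, adjusted p = 0.0312). With libraries left out in turn, syt5a lost its call without DMSO replicate 1, DMSO replicate 2 or Tan I replicate 2 (adjusted p from 0.0763 to 0.134), and cplx4c held only without DMSO replicate 1 or Tan I replicate 3 (adjusted p of the lost calls from 0.0967 to 0.173). Of all 20836 genes tested, 3182 had an unadjusted p under 0.05 by limma. None of 6 horizontal, 7 amacrine and 7 ganglion cell genes was called by limma, with 0, 3 and 3 of them at an unadjusted p under 0.05 and medians of -0.09, -0.11 and -0.08. Their smallest p values were those of cx52.9 (0.49, adjusted p = 0.341), slc32a1 (-0.23, adjusted p = 0.202) and atoh7 (-0.65, adjusted p = 0.14). As the RNA was of whole embryos, how much of the counts of these neuron genes came from the retina was not tested. The absence of calls therefore does not show that retinal neurons were unchanged. None of the 14 lens genes was called, and none had an unadjusted p under 0.05 (smallest for mipb, -0.41, adjusted p = 0.366). With the replicate number as a block, 3 lens genes were called lower, mipb among them (adjusted p = 0.016). The summed lens level ran from 9605 to 17571 in DMSO and from 7634 to 15933 in Tan I, and was lowest in replicate 3 of each group.

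Pineal photoreceptors share part of the rod machinery. Of 10 pineal genes, none was called by limma and 4 had an unadjusted p under 0.05, with a median of -0.16 on the log2 scale and a summed level of 4030 to 4161 in DMSO and 3471 to 3774 in Tan I. An unadjusted p under 0.05 was found for 3182 of all 20836 genes tested. The pineal opsin gene exorh had 101.7, 76.5 and 74.5 normalized counts in DMSO and 64.5, 54.3 and 61.9 in Tan I (log2 fold change -0.47, limma adjusted p = 0.238), without overlap. The smallest p was that of tph2, an enzyme of serotonin synthesis (0.51, adjusted p = 0.116). How much of the rod signal came from the pineal gland was not tested.

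Among the rod genes, the order of the Tan I libraries was not shared by all. Of the 8 called genes, the highest Tan I library was replicate 3 for 6 and replicate 2 for 2. Summed as reads, the 10 genes made up 0.268%, 0.267% and 0.262% of DMSO libraries and 0.170%, 0.173% and 0.188% of Tan I libraries. When Tan I replicate 3 was left out, 8 genes were still called lower.

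The genes whose values over the 6 libraries were most like those of rho were ranked by the root mean square difference of centred log2 values, over 15066 genes with a mean of at least 100. Of the 10 nearest, 4 were on a photoreceptor list (aipl1, sagb, saga and rom1a, at 0.0953 to 0.104). The others were tfa (transferrin), the nearest at 0.0916, fabp6 (a fatty acid binding protein), fahd2a, slc39a5 (a zinc transporter), CABZ01102039.1 and si:ch211-113d22.2. For nr2e3, 4 of 10 were on such a list (aipl1, sagb, cplx4c and rorb). The others were apoa4b.2 and apoea (apolipoproteins), the nearest being apoa4b.2 at 0.0452, slc22a16, myl2b, hmbox1a and elovl4b (a fatty acid elongase). The share of photoreceptor list genes among all 15066 was not computed, and the lists were chosen with earlier results of these data known.

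The rod calls under each way of processing are shown gene by gene. In 14 of 17 alternatives the 8 genes were called lower and in none was any of the 10 called higher, and no fold change of the 10 turned its direction. The calls of rho, saga and sagb were held in all 17, and the log2 fold change of rho ran from -0.77 to -0.69.

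**Figure D5:**
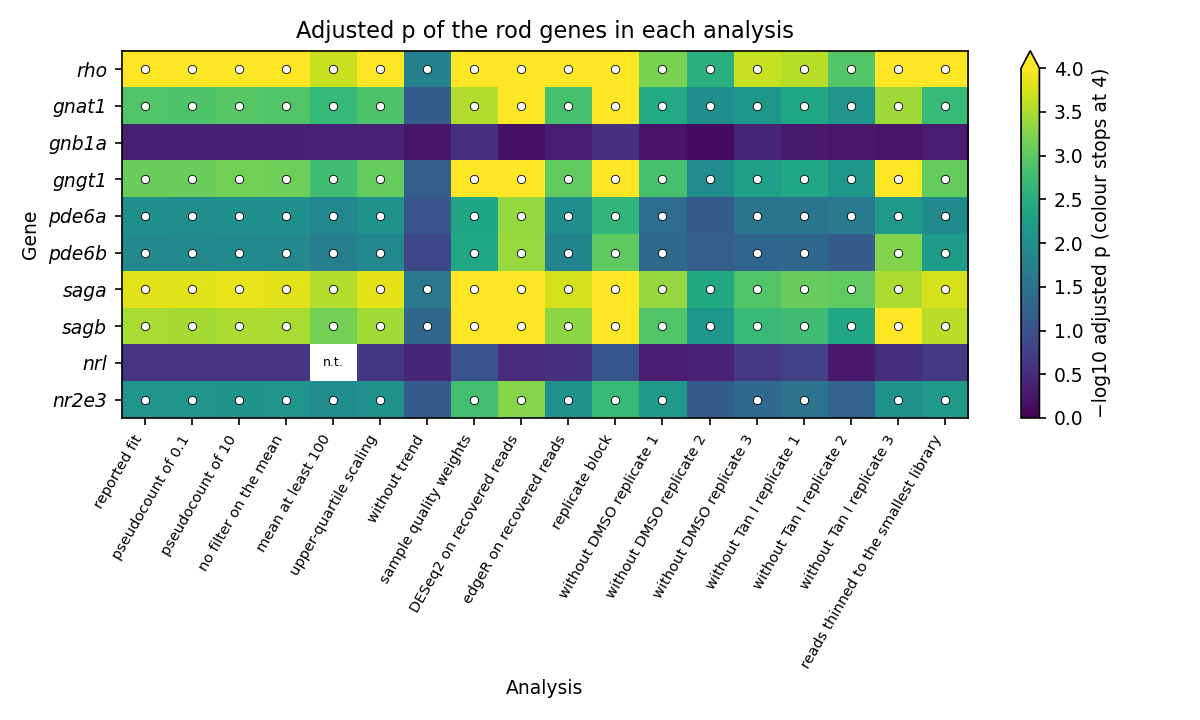
Adjusted p of each rod gene (colour, −log10 scale that stops at 4) in the reported fit and in 17 alternative analyses, with a white dot where it was under 0.05 and n.t. where the gene was not tested. The rows of gnb1a and nrl hold no dot, and the column without the variance trend holds dots only for rho, saga and sagb.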

How the data were processed

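RNA of zebrafish embryos was sequenced in 6 libraries. Per the study's methods and processing notes, reads were aligned to GRCz11 with STAR, reads mapping to more than 1 place were removed, and genes were counted with featureCounts. Tool versions, the annotation and strand settings are not given in the sources used here, so related copies and overlapping genes can lose or share reads. The deposited signal values are normalized read counts, obtained by the authors with 1 size factor for each library. The authors' fold changes, standard errors, test scores and p-values in the same table were not used. The lowest mean over the 6 libraries was 7.54.

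Symbols are those of the deposited table. A separate name table gave the same symbol for 8 of the 10 rod gene IDs, and gave PDE6B for the pde6a ID and GNG11 for the gngt1 ID. No coordinates or sequences are given.

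The log2 of each value plus 1 was taken, a scale that understates changes of weak genes, and the 20836 genes with a mean of 10 or more were tested with limma 3.58.1 (lmFit, eBayes with trend, 2-sided) in R 4.3.3, Tan I against DMSO without covariates. Calls were made at an adjusted p (Benjamini-Hochberg, all tested genes) under 0.05. Groups and replicate numbers came from sample titles. The fit was tested on simulated data. Alternatives were pseudocounts of 0.1 and 10, upper-quartile scaling, no filter, a minimum mean of 100, no trend, sample quality weights, DESeq2 1.42.0 and edgeR 4.0.16 on recovered reads, a replicate block, leaving out each library, and, added after the depths were seen, thinning to the smallest library.

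The rod genes and the 13 other lists (178 genes measured) were chosen with earlier results of these data known. All 10 rod genes were named, with up to 3 genes per direction with the smallest p among called genes of each other list, or else the gene with the smallest p. Genes outside this rule are marked, and gnb1b, crx, prph2a, rp1l1b, exorh and the cone genes of the ratios were also named after their values were seen.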

Additional observations from a re-analysis of the deposited data

How the results depend on the processing

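Of 17 alternatives, 14 gave the same 8 rod genes called lower as the reported fit. Of 59 listed genes followed through the alternatives, gngt2b alone turned its direction: -0.11 in the reported fit, -0.22 to 0.10 with a library left out, positive without Tan I replicate 1 and never past the threshold. Without the variance trend 3 rod genes were called lower, and leaving out each library in turn gave 5 to 8. Without DMSO replicate 2 the calls of pde6a, pde6b and nr2e3 were lost, and without Tan I replicate 2 those of pde6b and nr2e3. Fits with a library left out hold fewer libraries, and why these calls were lost was not tested. The median difference between effectors and factors was -0.01 in the reported fit and ran from -0.13 to 0.18 when a library was left out. With the replicate block 8 rod genes were called lower. Deviations of same-numbered libraries correlated at 0.08, -0.03 and 0.21 for replicates 1 to 3. As only replicate 3 was above 0.1, and DMSO replicate 1 correlated better with Tan I replicate 2 (0.10), the numbers were not taken as pairs, although both groups had the same order on the second principal component. Of the other rod genes, 11 were called lower with the replicate block in place of 7, 1 without the trend and 4 without DMSO replicate 2. The block also called 3 lens genes lower in place of 0. Over all genes, 536 were called in the reported fit, 165 without the trend, 984 with quality weights, 1093 with the replicate block and 213 to 709 with a library left out. The nrl gene held 34 to 79 reads per library, and its coefficient of variation was 29.2% in DMSO and 31.5% in Tan I.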
